A study of Rattus norvegicus with 6 samples.

Results

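Of the 562 mature miRNAs listed in 6 small RNA libraries of the rat hypothalamic arcuate nucleus (ARC), 9 come from the hairpins miR-34a, miR-34b, miR-34c, miR-449a, miR-204 and miR-211, and these 9 were chosen by name, with either arm of the hairpin allowed. Both arms were listed for miR-34b, miR-34c and miR-204, and the 5p arm alone for miR-34a, miR-449a and miR-211. The libraries came from Sprague-Dawley rats of 8 to 10 weeks, 3 from sham-operated rats, in which the infraorbital nerve was exposed on a single side, and 3 from rats with chronic constriction injury of that nerve (CCI-ION), in which silk ligatures were tied loosely around it. The study's methods describe the rats as male unless stated otherwise. All tissue was taken on Day 14 after surgery, and the comparison asks which miRNAs of the ARC differ once trigeminal neuropathic pain is established. The study's text counts more rats per group for its miRNA data than there are libraries, and the sources used here do not give how rats were assigned to them, so whether a library is 1 rat or a pool is unknown, n counts libraries and the spread between them may be partly technical.

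A miRNA is cut from a hairpin precursor as a duplex, one strand of which, from the 5p or the 3p arm, is usually kept and guides silencing of mRNAs that match its bases 2 to 8, the seed. The miR-34 and miR-449 hairpins form a family best known from multiciliated cells, such as the ependymal cells that line the ventricles, where miR-34b, miR-34c and miR-449 take part in making motile cilia. miR-34a is also induced by p53 and is known as a stress-response miRNA. miR-204 and miR-211 are typical of the choroid plexus and of pigmented epithelia, and lie in introns of the related channel genes Trpm3 and Trpm1. The ARC borders a ventricle, so a dissected block can include ependyma. In such a bulk sample, fewer cells of a type and less of the miRNA per cell cannot be told apart.

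The mature sequences show which of the 9 can bind the same targets and which are so alike that their reads could be confused. They are given as in RefSeq (GRCr8), which held all 9, from 5′ to 3′ with the seed in capitals.
rno-miR-34a-5p: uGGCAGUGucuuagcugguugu
rno-miR-34b-5p: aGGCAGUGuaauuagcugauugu
rno-miR-34c-5p: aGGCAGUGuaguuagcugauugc
rno-miR-449a-5p: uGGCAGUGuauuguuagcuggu
rno-miR-204-5p: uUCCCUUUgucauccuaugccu
rno-miR-211-5p: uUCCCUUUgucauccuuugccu
rno-miR-34b-3p: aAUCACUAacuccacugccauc
rno-miR-34c-3p: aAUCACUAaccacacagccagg
rno-miR-204-3p: gCUGGGAAggcaaagggacguu

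The 5p strands of the miR-34 and miR-449 hairpins carried one common seed, and these 4 were the only miRNAs with it among the 512 listed miRNAs that had a RefSeq sequence. miR-204-5p and miR-211-5p carried a second seed, shared by no other listed miRNA with a sequence. Counted from 1 at the 5′ end, miR-204-5p and miR-211-5p differed at 1 of 22 bases (A17U), and miR-34b-5p and miR-34c-5p at 2 of 23 (A11G and U23C). How the counting treated reads with a mismatch is not given in the sources used here, so the levels of miR-211-5p and miR-34b-5p, each the rarer of its pair, are uncertain. The 3p strands of miR-34b and miR-34c shared another seed and differed at 5 of 22 bases, and miR-204-3p shared its seed with no other listed miRNA. In RefSeq, Mir34c and Mir34b are direct neighbours beside Btg4, with Mir34c inside the span of Hoatz, a gene of cilia and flagella. Mir449a lies next to Mir449c.

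Values are normalized counts, the reads of a miRNA divided by a size factor of its library, and per-library values are listed in the order of replicates 1, 2 and 3. The libraries held 11115049 to 14313839 reads in sham and 8628309 to 11297551 reads in CCI-ION rats, and CCI-ION replicates 2 and 3 were shallower than any sham library. All 9 miRNAs were above 0 in all 6 libraries. miR-449a-5p had the fewest reads, 17 to 65 per library, and each of the other 8 had at least 246.

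miR-204-5p was the most abundant of the 9 and ranked 26 of all 562 by mean level. Its normalized counts were 74554, 55361 and 53311 for the sham libraries and 68210.0, 91358 and 67714 for the CCI-ION libraries. The groups overlapped, with sham replicate 1 above CCI-ION replicates 1 and 3. miR-34c-5p followed at rank 73, with a mean 5.80 times lower, and miR-204-5p was above it in 6 of 6 libraries. miR-211-5p ranked 153, with 2246 to 3776 normalized counts. It was above miR-34b-5p, at rank 180, in 5 of 6 libraries only, at 0.985 to 2.21 times its level, and their ranges overlapped. The difference between these neighbours was not tested.

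Below them, miR-34b-5p was above its own partner arm miR-34b-3p in 6 of 6 libraries, and miR-34b-3p above miR-204-3p likewise. miR-204-3p, at 655 to 1124 normalized counts, was above miR-34a-5p in 5 of 6 libraries, and their ranges overlapped. miR-34a-5p and miR-34c-3p could not be ordered, since miR-34a-5p was the higher in 2 of 6 libraries. miR-449a-5p was the rarest of the 9, at 15.8 to 70.0 normalized counts and rank 416, with a mean 8.16 times lower than that of miR-34c-3p. Levels of different miRNAs are compared here as normalized counts of strands of 22 or 23 bases, with no correction for how efficiently each sequence enters a library.

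**Figure D1:**
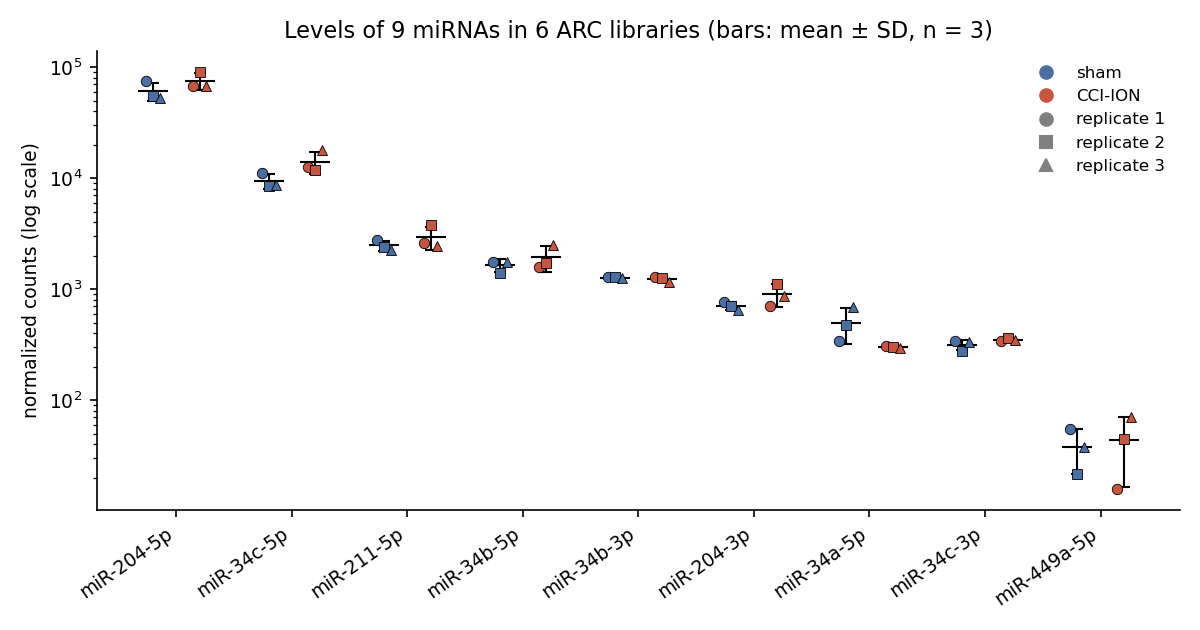
Normalized counts (log scale) of the 9 miRNAs in 3 sham (blue) and 3 CCI-ION (red) libraries, ordered by mean level, with 1 symbol per library and bars for the mean ± SD of each group. miR-204-5p lies between 53311 and 91358 and miR-449a-5p between 15.8 and 70.0, while the groups are apart for miR-34c-5p and miR-34a-5p.

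Among the 5p strands with the miR-34 seed, miR-34c-5p made up most of the reads. It held 81.1% ± 3.19 of the summed normalized counts of these 4 miRNAs in sham and 86.1% ± 0.721 in CCI-ION libraries (SD, n = 3 each). miR-34b-5p held 14.2% ± 1.52 and 11.7% ± 0.657, miR-34a-5p 4.41% ± 1.81 and 1.90% ± 0.406, and miR-449a-5p 0.321% ± 0.105 and 0.256% ± 0.127, in the same order. The ciliated-cell miRNA miR-449a was therefore under 1% of its seed family in this tissue, and miR-34c-5p stood above 77% in every library. Together the 4 summed to 11613 ± 1460.0 normalized counts in the sham and 16415 ± 3778 in the CCI-ION libraries (SD, n = 3 each), a description with no test. Within the other seed pair, miR-204-5p held 96.1% ± 0.321 in sham and 96.3% ± 0.232 in CCI-ION libraries (SD, n = 3 each).

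CCI-ION and sham were compared by limma on log2(normalized count + 1) over all 555 miRNAs with a mean of at least 1. None of the 9 passed an adjusted p of 0.05 in either direction, where 6.85% of all miRNAs tested did, 3.42% as higher and 3.42% as lower in CCI-ION rats. At an unadjusted p under 0.05 there were 2 of the 9, miR-34c-5p and miR-34a-5p, beside 33.0% of all miRNAs tested. With total-count scaling there were 4 of the 9, beside 188 of all 555. limma-voom on the reads, added after the data were seen, also gave 0 of 9 past the threshold, beside 93 of all 555. At an unadjusted p under 0.05 it again gave 2 of the 9, beside 199 of all 555. A p that misses the threshold does not show that the groups were alike, so intervals are given with each value. Log2 fold changes were above 0 for 7 of the 9 and for 48.8% of all miRNAs tested, with medians of 0.22 and -0.01, but upper-quartile scaling, which moved the median of all miRNAs to -0.33, left 1 of the 9 above 0, and total-count scaling, which moved it to 0.17, put 8 above 0. In 2 of the 9 the groups did not overlap, and this was so for 40.7% of all miRNAs tested.

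miR-34c-5p, one of the miRNAs of motile cilia, had the largest difference toward higher levels in CCI-ION rats among the 9. The sham libraries held 11104, 8576 and 8627 normalized counts, and the CCI-ION libraries 12559, 11952.5 and 17903.5. The groups were apart, with CCI-ION above sham, as were those of 19.5% of all miRNAs tested, and CCI-ION replicate 3 stood well above the remaining libraries. The means were 9436 ± 1445 and 14138 ± 3275 (SD, n = 3 each), a ratio of 1.50. The log2 fold change was 0.57 (standard error 0.21, 95% interval 0.05 to 1.09), with an adjusted p of 0.136 (limma) that missed the threshold. Without CCI-ION replicate 3 it was 0.39 (adjusted p = 0.237, limma), and with upper-quartile scaling 0.24 (adjusted p = 0.373, limma).

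miR-34a-5p, which has the same seed but its own gene, showed the opposite direction. The sham libraries held 339, 471 and 687 normalized counts, and the CCI-ION libraries 308, 299.5 and 297. The CCI-ION libraries were close together and all below the sham libraries, as was the case for 21.3% of all miRNAs tested, while the sham libraries spread over a wide range. The means were 499 ± 175 and 302 ± 5.70 (SD, n = 3 each), so that the CCI-ION mean was 39.6% below sham. The log2 fold change was -0.67 (standard error 0.27, 95% interval -1.33 to -0.0053), with an adjusted p of 0.149 (limma) that again missed the threshold. It was -0.41 without sham replicate 3, the library with the highest level (adjusted p = 0.275, limma), -0.91 without sham replicate 1 (adjusted p = 0.113, limma) and -0.996 with upper-quartile scaling (adjusted p = 0.0590, limma).

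The other members of the miR-34 and miR-449 hairpins had overlapping groups. For miR-34b-5p, normalized counts were 1757, 1393 and 1770.1 in sham and 1589, 1707 and 2499 in CCI-ION libraries. CCI-ION replicate 3 was again the highest library, and the remaining CCI-ION libraries fell within the sham range. Its log2 fold change was 0.22 (95% interval -0.33 to 0.76, adjusted p = 0.508 from limma), and with upper-quartile scaling it was -0.11. miR-34c-3p, the rarer arm of miR-34c, ranged from 277 to 341 normalized counts in sham rats and from 341 to 365 in CCI-ION rats. Its log2 fold change was 0.15 (95% interval -0.16 to 0.47, adjusted p = 0.432 from limma), and -0.18 with upper-quartile scaling.

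miR-34b-3p was the steadiest of the 9. Sham libraries had 1285, 1285 and 1249.99 normalized counts, and CCI-ION libraries 1289.6, 1258 and 1173. Its coefficient of variation over the 6 libraries was 3.49%, against a median of 18.0% among the 364 miRNAs whose mean reached 100. The interval of its log2 fold change, -0.29 to 0.21 around -0.04, corresponds to a 0.818-fold to 1.16-fold level in CCI-ION rats on this scaling (adjusted p = 0.815 from limma), but the value moved with the scaling, to 0.16 with total counts (adjusted p = 0.339, limma) and to -0.37 with upper quartiles (adjusted p = 0.0853, limma), the latter outside that interval.

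miR-449a-5p was at 54.9, 21.6 and 37.9 normalized counts in the sham libraries and at 15.8, 45.1 and 70.0 in the CCI-ION libraries, so that the CCI-ION group held both the lowest and the highest library. The exact Poisson 95% interval, which covers counting error only, was 9.21 to 25.3 for CCI-ION replicate 1 and 54.0 to 89.2 for CCI-ION replicate 3, so counting error alone did not span the spread in that group. Its log2 fold change of 0.05 had an interval of -1.49 to 1.59 (adjusted p = 0.962 from limma), which is too wide to place it on either side, and it was -0.27 with upper-quartile scaling.

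**Figure D2:**
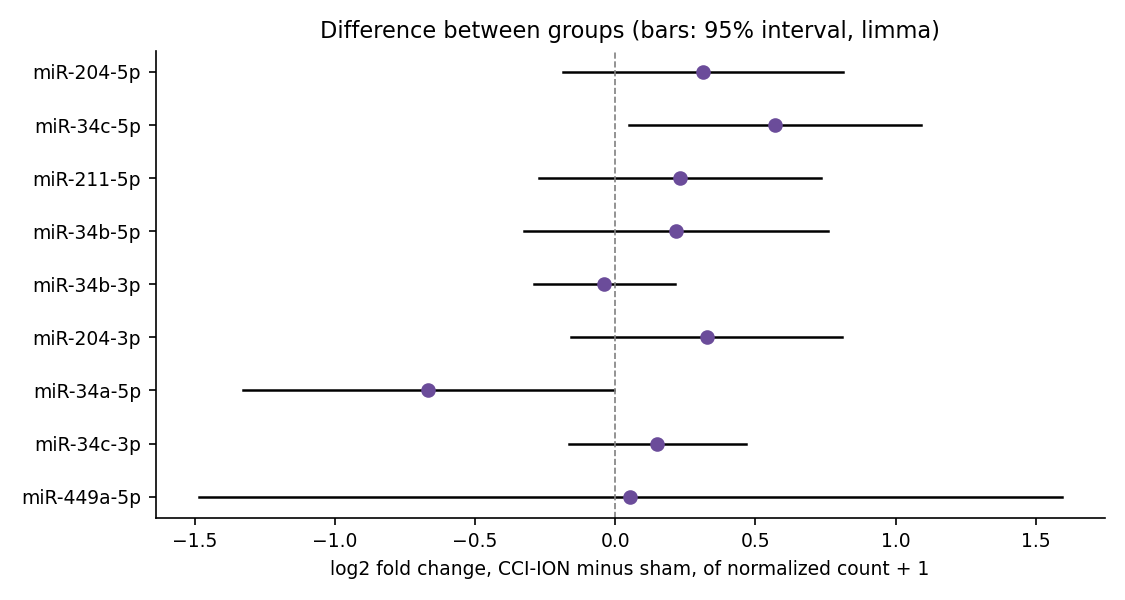
Log2 fold change of CCI-ION against sham for the 9 miRNAs, with 95% intervals from limma, in the order of their mean level. The intervals of miR-34c-5p (0.05 to 1.09) and miR-34a-5p (-1.33 to -0.0053) lie on one side of 0 without passing the adjusted threshold, and that of miR-449a-5p is the widest.

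The choroid plexus miRNAs did not separate the groups either. miR-204-5p averaged 61076 ± 11718 normalized counts in sham against 75761 ± 13510.2 in CCI-ION rats (SD over 3 libraries), a log2 fold change of 0.31 (95% interval -0.19 to 0.81, adjusted p = 0.309 from limma) that was -0.017 with upper-quartile scaling. Its rarer arm miR-204-3p was at 762, 711 and 655 normalized counts in the sham libraries and at 711, 1124 and 876 in the CCI-ION libraries. The log2 fold change of miR-204-3p was 0.33 (95% interval -0.16 to 0.81, adjusted p = 0.276 from limma), and -0.0036 with upper-quartile scaling. For miR-211-5p the sham libraries gave 2767, 2424 and 2246 normalized counts and the CCI-ION libraries 2627.5, 3776 and 2461. Its log2 fold change was 0.23 (95% interval -0.27 to 0.73, adjusted p = 0.442 from limma), and -0.098 with upper-quartile scaling. In all 3, CCI-ION replicate 2 was the highest library and sham replicate 3 the lowest.

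The 9 miRNAs thus varied between libraries in more than one way. Relative to the sham mean, CCI-ION replicate 2 stood at 1.50 for miR-204-5p, 1.58 for miR-204-3p and 1.52 for miR-211-5p, whereas CCI-ION replicate 3 stood at 1.11, 1.24 and 0.993. For 3 of the 5 strands of miR-34b, miR-34c and miR-449a the order was the other way, with CCI-ION replicate 3 at 1.90 for miR-34c-5p, 1.52 for miR-34b-5p and 1.83 for miR-449a-5p, and CCI-ION replicate 2 at 1.27, 1.04 and 1.18. The 3p arms did not share that order, since CCI-ION replicates 2 and 3 stood at 1.15 and 1.09 for miR-34c-3p and at 0.988 and 0.922 for miR-34b-3p. Over the 6 libraries, log2 levels of miR-204-5p and miR-211-5p had a Pearson's r of 0.926 and the same order of libraries (Spearman's rho 1), and those of miR-204-5p and miR-204-3p an r of 0.859. Between miR-204-5p and miR-34c-5p r was 0.502, and 0.058 once the group means were removed. These are descriptions of 6 points that share library and depth, and miR-204-5p and miR-211-5p also share all but 1 base.

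**Figure D3:**
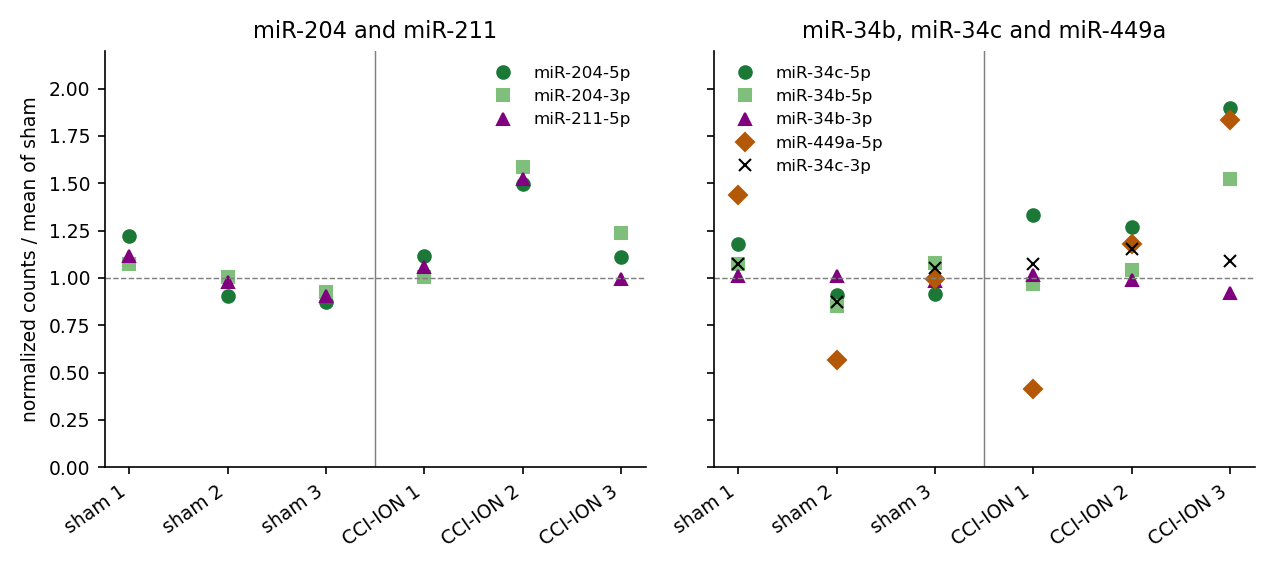
Normalized counts of each library divided by the sham mean, for miR-204 and miR-211 strands (left) and for miR-34b, miR-34c and miR-449a strands (right), with 1 symbol per library. CCI-ION replicate 2 is highest for the left-hand strands (1.50 to 1.58), and CCI-ION replicate 3 for miR-34c-5p, miR-34b-5p and miR-449a-5p (1.52 to 1.90), while miR-34c-3p is highest in CCI-ION replicate 2 (1.15) and miR-34b-3p stays between 0.922 and 1.01.

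The hairpins differed in how far a single arm prevailed. The 5p arm of miR-204 outnumbered its 3p arm 77.3 to 97.8 times, and that of miR-34c 25.9 to 51.8 times. The arms of miR-34b were closer to level, although 5p was above 3p in 6 of 6 libraries. Its 5p to 3p ratios were 1.37, 1.08 and 1.42 for the sham libraries and 1.23, 1.36 and 2.13 for the CCI-ION libraries. These ratios share the uncertainty of miR-34b-5p, which differs from the more abundant miR-34c-5p at 2 of 23 bases. Among the 190 hairpins with both arms measured, the median fold between arms was 12.7, and 18 were within 1.5-fold on average. Across the 6 libraries, miR-34b-5p and miR-34b-3p had an r of -0.920 (Spearman's rho -0.714), again as a description. For miR-34b-5p and miR-34c-5p r was 0.797 (Spearman's rho 0.429). The levels of miR-34b-3p spanned only 0.922 to 1.01 of its sham mean. CCI-ION replicate 3 had the most miR-34b-5p and the least miR-34b-3p.

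The arm ratio does not depend on the scaling between libraries, and none of the 3 hairpins passed the threshold in the limma test of log2 arm ratios, where 10.5% of the 190 hairpins did. For miR-34c the ratio was 29.8 ± 3.49 in sham against 40.5 ± 10.0 in CCI-ION libraries (SD, n = 3 each), a difference of 0.42 on the log2 scale (95% interval -0.13 to 0.97, adjusted p = 0.256 from limma). For miR-34b the ratio was 1.29 ± 0.179 and 1.57 ± 0.486, a difference of 0.25 (95% interval -0.39 to 0.90, adjusted p = 0.540 from limma). For miR-204 it was 85.7 ± 10.6 and 84.8 ± 9.83, a difference of -0.013 (95% interval -0.41 to 0.39, adjusted p = 0.958 from limma). Before adjustment, p was 0.109 for miR-34c, 0.364 for miR-34b and 0.937 for miR-204 (limma).

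**Figure D4:**
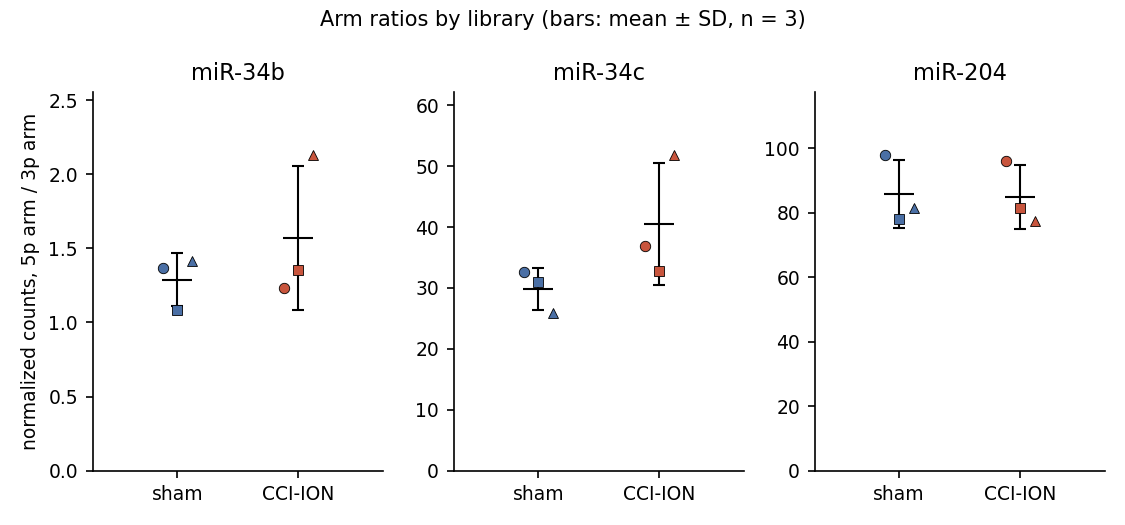
Normalized counts of the 5p arm divided by those of the 3p arm for miR-34b, miR-34c and miR-204, with 1 symbol per library, bars for the mean ± SD of 3 libraries and a separate axis from 0 for each hairpin. Ratios lie between 1.08 and 2.13 for miR-34b, 25.9 and 51.8 for miR-34c and 77.3 and 97.8 for miR-204. The groups overlap for miR-34b and miR-204. For miR-34c they are barely apart, with the highest sham ratio at 32.60 and the lowest CCI-ION ratio at 32.72.

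Ratios between members were compared within libraries, which also removes the scaling. There were 4 pairs, and an exact permutation test of 3 libraries against 3 cannot give a two-sided p below 0.1. miR-34c-5p was 32.7, 18.2 and 12.6 times the level of miR-34a-5p in the sham libraries and 40.8, 39.9 and 60.3 times in the CCI-ION libraries. The difference was 1.24 on the log2 scale (exact permutation p = 0.1, adjusted 0.2 over the pairs). These groups could not overlap, because miR-34c-5p was higher and miR-34a-5p lower in all CCI-ION libraries than in any sham library. The p was therefore fixed at its lowest value, and the ratio restates the differences of the single miRNAs. miR-34c-5p was 7.41 ± 1.08 times the level of miR-34b-3p, which is cut from the same primary transcript, in sham and 11.5 ± 3.26 times in CCI-ION libraries (SD, n = 3 each), again with no overlap (log2 difference 0.61, exact permutation p = 0.1, adjusted 0.2), and the log2 difference was 0.39 without CCI-ION replicate 3. As miR-34b-3p hardly varied (coefficient of variation 3.49%), this ratio mostly repeats the difference of miR-34c-5p.

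The ratio of miR-204-5p to miR-211-5p was nearly constant, at 26.9, 22.8 and 23.7 for sham and 26.0, 24.2 and 27.5 for CCI-ION libraries. The log2 difference of 0.08 was no larger than the spread between libraries (exact permutation p = 0.4, adjusted 0.533). The ratio of miR-204-5p to miR-34c-5p was 6.71, 6.46 and 6.18 for sham and 5.43, 7.64 and 3.78 for CCI-ION libraries. The sham libraries were alike in this ratio, and the CCI-ION libraries fell on both sides of them (log2 difference -0.26, exact permutation p = 0.6, adjusted 0.6).

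Other miRNAs known from the choroid plexus, those in the host gene Htr2c, which neurons of the hypothalamus also express, gave 0 of 6 past the threshold, with 2 at an unadjusted p under 0.05 in limma, beside 6.85% and 33.0% of all miRNAs tested. miR-1298, the most abundant of them, averaged 4032 ± 434 normalized counts in sham against 5782 ± 498 in CCI-ION libraries (SD, n = 3 each), and its log2 fold change of 0.52 missed the threshold (adjusted p = 0.0779, limma). Its lowest CCI-ION library was replicate 2, at 5281, the library with the most miR-204-5p. miR-448-5p, the other at an unadjusted p under 0.05, went the opposite way. It was at 94.9 to 146 in sham and 71.8 to 78.2 in CCI-ION libraries (log2 fold change -0.63, adjusted p = 0.0886, limma). Of 13 other miRNAs associated with p53, 2 rose, miR-143-3p (log2 fold change 1.11, adjusted p = 0.0334, limma) and miR-145-5p (0.85, adjusted p = 0.0450, limma), both also typical of vessel walls. From the same list miR-107-3p fell (-0.56, adjusted p = 0.0450, limma), and 10 did not pass, where 3.42% of all miRNAs tested rose and 3.42% fell. The median log2 fold change was 0.12 for the Htr2c list and 0.53 for the p53 list.

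Summed markers of other cell types differed between the same libraries. The 13 miRNAs of pituitary and epithelium summed to 16306 to 23236 normalized counts in sham rats and to 20287, 51565 and 39453 in CCI-ION replicates 1, 2 and 3, so that the libraries with the most miR-204-5p and the most miR-34c-5p were also the highest in this list, although 0 of its 13 passed the threshold. The 6 of vessel walls had 80930.4 to 106733 in sham and 152272 to 166198 in CCI-ION rats (2 of 6 passed as higher), and the 3 of meninges and mesenchyme 5723 to 6368 and 6468 to 10815 (1 of 3, miR-199a-5p). Of all miRNAs tested, 3.42% passed as higher and 3.42% as lower. The vessel-wall sum was mostly miR-143-3p and miR-126a-3p. miR-126a-5p lay barely apart in the other direction, at 644 to 1047 in sham and 237 to 643 in CCI-ION libraries (log2 fold change -0.91, adjusted p = 0.205, limma). Sums were 661812 to 886925 in sham and 529088 to 631571 in CCI-ION rats for the 7 of neurons (1 of 7, miR-124-3p, lower), and 5017 to 6455 and 3436 to 3906 for the 3 of oligodendrocytes (1 of 3, miR-338-3p, lower). The neuronal sum was mostly miR-128-3p and miR-129-5p, and miR-129-5p lay apart in the other direction, at 200122 to 211908 in sham and 267822 to 312949 in CCI-ION libraries (log2 fold change 0.45, adjusted p = 0.0762, limma). The 3 of erythrocytes (2837 to 3798 and 2898 to 3660) and the 9 of immune cells (9604 to 11454 and 8745 to 10478) had overlapping sums and no miRNA past the threshold. Within these lists miR-451-5p, at 137 to 242 in sham and 366 to 473 in CCI-ION libraries (log2 fold change 1.07, adjusted p = 0.0649, limma), and miR-223-3p, at 35.4 to 59.0 and 78.2 to 94.7 (0.95, adjusted p = 0.0597, limma), lay apart as higher in CCI-ION. miR-150-3p also did, at 43.4 to 53.1 and 60.3 to 63.3 (0.36, adjusted p = 0.111, limma). miR-150-5p lay apart as lower, at 2342 to 2951 and 1691 to 2141 (-0.45, adjusted p = 0.113, limma). The rest of both lists overlapped, among them miR-486, most of the erythrocyte sum (-0.08, adjusted p = 0.749, limma). Of all miRNAs tested, 19.5% lay apart as higher and 21.3% as lower. The part of these markers in the values of the 9 miRNAs was not tested.

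The miRNAs outside the 9 whose log2 levels most resembled those of a member over the 6 libraries were taken from 356 with a mean of at least 100. For miR-204-5p they were miR-25-3p (r = 0.997), miR-224-5p (0.980) and miR-23a-3p (0.979), and none of these passed the threshold between the groups. For miR-34c-5p they were miR-29c-5p (0.975), miR-30a-5p (0.924) and miR-27a-3p (0.922), of which miR-27a-3p did pass (log2 fold change 0.96, adjusted p = 0.0450, limma). For miR-34a-5p they were miR-219a-2-3p (0.978), a miRNA of oligodendrocytes, miR-181b-5p (0.939) and miR-217-5p (0.930). For miR-34b-3p they were miR-3099 (0.964), miR-28-5p (0.951) and miR-1839-3p (0.940). Each r is the highest of many over 6 libraries and serves as a description.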

How the data were processed

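The labels' processing notes name cutadapt 1.14, Bowtie 1.1.1 and build rn6, and the sources used here do not give the miRNA annotation, the counting or the normalization. The deposited values are a normalized signal for each mature miRNA, a read count over a size factor particular to its library, as the authors scaled it: all values were whole multiples of 1 step per library within 0.01 reads, and the smallest value above 0 was worth 5 reads. Groups and replicate numbers came from the sample labels. Members and lists were chosen with earlier results of these data known.

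limma 3.58.1 (R 4.3.3) was run, two-sided, on log2(normalized count + 1). Adjustment was by Benjamini-Hochberg over 555 miRNAs (7 with a mean under 1 left out), a threshold of 0.05 and no covariates, and on log2 arm ratios of 190 hairpins. Fold changes on this scale understate changes of miRNAs with few reads. Pairs of members were compared by exact permutation (SciPy 1.17.1). Named were all members, miRNAs sharing their seeds, the 3 most alike in level for 4 of the members, and up to 4 of each list past the threshold. miR-1298, miR-448-5p, miR-126a-3p, miR-126a-5p, miR-128-3p, miR-129-5p, miR-451-5p, miR-486, miR-223-3p, miR-150-3p, miR-150-5p and the list sums were chosen after their values were seen. The test was also run on data simulated for the comparison of the groups, with 554 miRNAs. It called 182 of the 199 given a log2 change of 1, with 2 false calls. On simulated arm ratios changed by 2 on that scale it called 40 of 40 among 189. These simulated rates do not give the power for a particular member. In the measured data, standard errors of the members ran from 0.10 for miR-34b-3p to 0.62 for miR-449a-5p. How closely the simulated spread matched them was not tested. The closing section gives the alternatives. Replicate libraries differed by more than sampling noise.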

Additional observations from a re-analysis of the deposited data

How the results depend on the processing

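The count of 0 of 9 members past the threshold held in all 14 alternatives, with adjusted p from 0.0590 to 0.287 for miR-34a-5p and from 0.0618 to 0.373 for miR-34c-5p (limma), and both kept their direction in all 14. Over all miRNAs, calls went from 38 to 88 with an intensity trend, 93 with limma-voom on reads (chosen after seeing the data), 63 when only means of 10 or more were tested and 117 by upper-quartile scaling, and to between 7 and 42 with a library left out. Higher calls made up 50% of 38, 82.4% of 51 under total-count scaling and 7.69% of 117 under upper-quartile scaling, and the median over all miRNAs went from -0.01 to 0.17 and -0.33 (log2) with these scalings.

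Upper-quartile scaling turned miR-34b-5p to -0.11, miR-34c-3p to -0.18, miR-449a-5p to -0.27, miR-204-5p to -0.017, miR-204-3p to -0.0036 and miR-211-5p to -0.098, and total counts turned miR-34b-3p to 0.16. With a library left out, the log2 fold change ranged from -0.067 to 0.00075 for miR-34b-3p and from -0.40 to 0.64 for miR-449a-5p, and the arm difference of miR-204 from -0.10 to 0.086. All other arm and pair differences kept their sign. The replicate number as a block gave 3 calls over all miRNAs and 0 of the 9. Before adjustment none of the 9 was under 0.05, beside 154 of all 555 (limma). Deviations from the group means of same-numbered libraries correlated at -0.03, 0.19 and -0.01, which does not show pairing by number. The planned quasi-likelihood test on reads was not run, and limma-voom on the reads computed from the values took its place. Apart from the fewer samples or miRNAs of some alternatives, the cause was not tested. Depth limits miR-449a-5p most, at 17 reads in CCI-ION replicate 1.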
